A study of Bos taurus with 90 samples.

Results

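Liver of Charolais (CH) and Holstein-Friesian (HF) steers fed zero-grazed grass (ZG) was compared by RNA-Seq, using the 24 libraries of the 90 in the series that carry the ZG diet label. Of the CH steers 3 had a low and 3 a high residual feed intake (RFI), and of the HF steers 10 had a low and 8 a high RFI. RFI is the feed eaten beyond that predicted from body weight and growth, so low RFI is the feed-efficient state. Every animal was a steer from a commercial herd, biopsied by liver punch at the end of the phase, and RFI was ranked within each breed, so a low RFI CH steer and a low RFI HF steer were each selected against their own breed. The grass phase came between H1 and H2, which were phases on 1 high-concentrate barley diet, and the HF steers had entered the trial older on average than the CH steers, so that breed and age cannot be told apart. Each steer gave 1 ZG library, and no steer was in both breeds.

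Charolais is a beef breed and Holstein-Friesian a dairy breed, and the liver supplies both with glucose made from the propionate that rumen microbes release, packages and oxidises fatty acids, disposes of nitrogen as urea, and secretes acute phase, complement and coagulation proteins. Grass and concentrate differ in how much starch reaches the rumen, so the liver works on a different mixture of fuels under each. Resident and passing leukocytes, which are part of any punch biopsy, contribute RNA to the same counts, and in such bulk samples fewer cells of a type and less RNA per cell cannot be told apart.

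The count table names genes by Ensembl identifier only. Symbols were available for 328 identifiers, those that the authors listed as differing between RFI groups in some breed and phase, and 320 of them had enough reads on grass to be tested. The symbols are therefore those of a list chosen by RFI on libraries that include these, and most genes measured here carry no name. Fibrinogen alpha chain (FGA), made by hepatocytes and the 1 marker gene with a symbol among 84 markers of 11 cell types, had 7645, 10322 and 16797 CPM (lowest, median and highest of 6) in CH and 6649, 13572 and 28709 CPM in HF (n = 18), where CPM is the read count scaled by TMM-normalized library size. FGA was thus among the abundant transcripts of every library, as the liver label requires. No marker of leukocytes, Kupffer cells, blood, muscle, skin or fat carried a symbol, so the share of other cells could not be compared between breeds.

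Reads counted on genes ranged from 11696079 to 63621304 per ZG library. Before breed is considered, 6 of the libraries stood apart. The first principal component of log2 CPM over all 24 libraries held 51.2% of the variance, and 6 libraries scored above 30 on it: CH low RFI steer 788, HF low RFI steers 1961 and 5635, and HF high RFI steers 1798, 2069 and 2242. The 100 most abundant genes took 50.2 to 58.2% of the reads in CH and 50.7 to 64.4% in HF. The TMM scaling factors were 1.00 to 1.14 in CH and 0.84 to 1.15 in HF.

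A further 3 libraries went against their breed labels. A breed score was formed from the 41 genes called between breeds in the same direction on both H1 and H2, as the mean log2 CPM of the 17 genes higher in CH there minus that of the 24 higher in HF there, with all 90 libraries normalized together. On grass, CH steer 437 scored -0.00013 while the other 5 CH steers scored 1.06 to 2.16, and HF steers 2094 and 5612 scored 1.45 and 1.78 while the other 16 HF steers scored -0.16 to 0.55. The 3 libraries lay nearer to the median of the other breed than to that of their own. A score from the 4 genes called on both diets without the steers that also have a grass library and without number 1797 separated the breeds less well: HF libraries ran from 0.022 to 2.19 (median 1.01) and the CH median was 1.88. On it steers 437, 2094 and 5612 scored -0.055, 2.19 and 1.88, and HF steers 2242 and 2272, at 1.48 and 1.65, also lay nearer to the CH median. On H1, where the score is no independent measure since it was chosen there, CH libraries ran from 0.84 to 1.92 and HF libraries from -0.48 to 1.01, and on H2 from 1.14 to 2.27 and from -0.50 to 0.12.

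**Figure D1:**
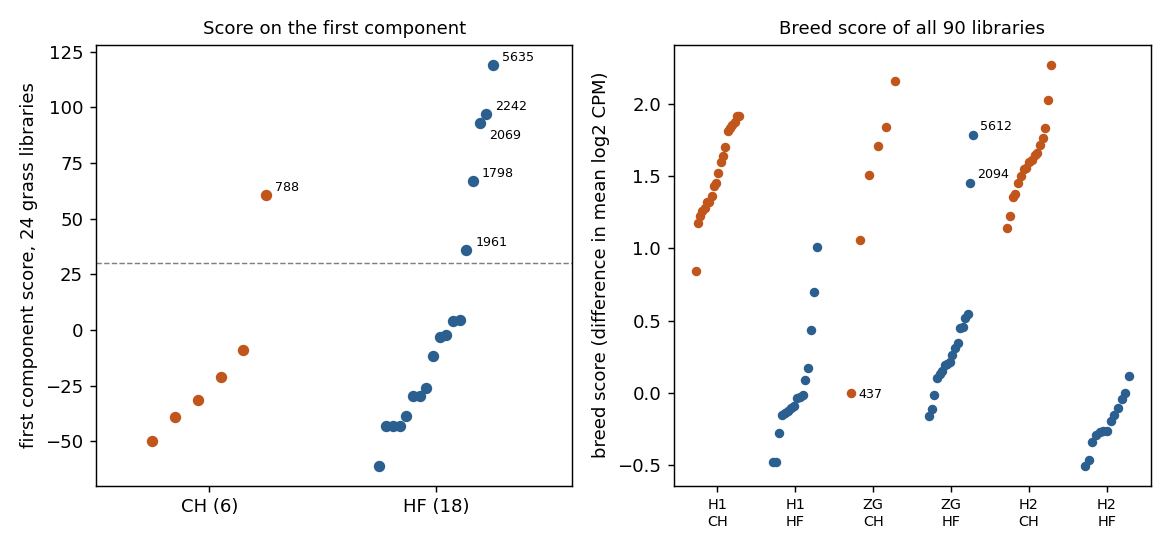
Each point is a library, orange for CH and blue for HF. The left panel gives the score of the 24 grass libraries on the first principal component (arbitrary units, dashed line at 30, 6 steers above it named), and the right panel gives the breed score (difference in mean log2 CPM) of all 90 libraries by diet and breed, in which CH steer 437 lies among the HF libraries and HF steers 2094 and 5612 lie among the CH libraries of the grass phase.

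One of the 3, steer 5612, also has an H2 library, labelled HF as well, and that library scored 0.0003. The other 7 grass steers with an H1 or H2 library, which make 9 pairs of libraries, differed from themselves by at most 0.38 between diets, against 1.78 for steer 5612. Likeness was also taken over the 100 genes of most variable expression, each standardized within its diet: the 9 pairs had a Pearson correlation across genes of 0.30 to 0.83, and the grass and H2 libraries of steer 5612 had one of 0.043, which ranked 14 among the 30 H2 libraries. Of the 9 pairs, 7 ranked first, while steer 1816 ranked 8 and steer 5632 ranked 6 among the 36 H1 libraries. These correlations describe genes of shared libraries and carry no test. All 3 libraries were kept under their labels, and results without them are given beside the main ones. The 3 were picked by genes that differ between breeds, so a comparison without them is a description and not a further test.

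edgeR's quasi-likelihood test, with RFI group as a covariate, called 2 of the 13057 genes tested between the breeds on grass at a Benjamini-Hochberg adjusted p under 0.1, which is 0.0153% of them. Both were higher in CH, and neither has a symbol. An unadjusted p under 0.05 was reached by 360 genes (2.76%), 186 higher in CH and 174 higher in HF, while 5% of the genes tested would be 653. In none of the 13057 genes (0.00%) did the 6 CH libraries separate completely from the 18 HF libraries in CPM. The median log2 fold change of CH over HF was 0.02.

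The gene ENSBTAG00000022396 had 4.53, 3.32 and 21.6 CPM in the CH high RFI steers 1816, 437 and 307 and 34.97, 143 and 4.30 CPM in the CH low RFI steers 1831, 357 and 788. HF steers had 0.639, 3.05 and 10.7 CPM (lowest, median and highest of 18). In 3 CH steers the level exceeded that of every HF steer, the other 3 lay within the HF range but above its median, and steer 357 was far above the rest. CH over HF was 3.23 on the log2 scale (SE 0.58), with an edgeR adjusted p of 0.0886, and without steer 357 it was 2.11, with an edgeR adjusted p of 0.995.

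The gene ENSBTAG00000001406 had 15.3, 1.94 and 4.37 CPM in CH steers 1816, 437 and 307 and 2.60, 3.30 and 9.86 CPM in CH steers 1831, 357 and 788. HF steers had 0.694, 1.76 and 4.17 CPM (n = 18). Here too all 6 CH steers were above the HF median and 3 above every HF steer, and of those 3 only steer 307 was also among the 3 for ENSBTAG00000022396. CH over HF was 1.78 on the log2 scale (SE 0.33), with an edgeR adjusted p of 0.0886, and without steer 1816, the highest, it was 1.22 and not called. Under both genes steer 437 was the lowest of the CH steers. ENSBTAG00000001406 was among the 41 genes whose score picked steer 437, so for that gene this follows in part from the choice.

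No gene passed the threshold in the other direction, and the 2 genes lower in CH with the smallest p were looked up after their values were seen. ENSBTAG00000007449 was weakly expressed, at 0.271, 0.435 and 0.737 CPM in CH (lowest, median, highest, n = 6) and 0.479, 0.828 and 1.72 CPM in HF (n = 18). In 5 of the 6 CH steers it was below every HF steer, and the exception was again steer 437; CH over HF was -1.15 on the log2 scale (SE 0.27), with an edgeR adjusted p of 0.443. ENSBTAG00000003718 had 168, 223 and 254 CPM in CH and 217, 300 and 379 CPM in HF, with all 6 CH steers below the HF median and a log2 fold change of -0.48 (SE 0.12) at an edgeR adjusted p of 0.62.

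**Figure D2:**
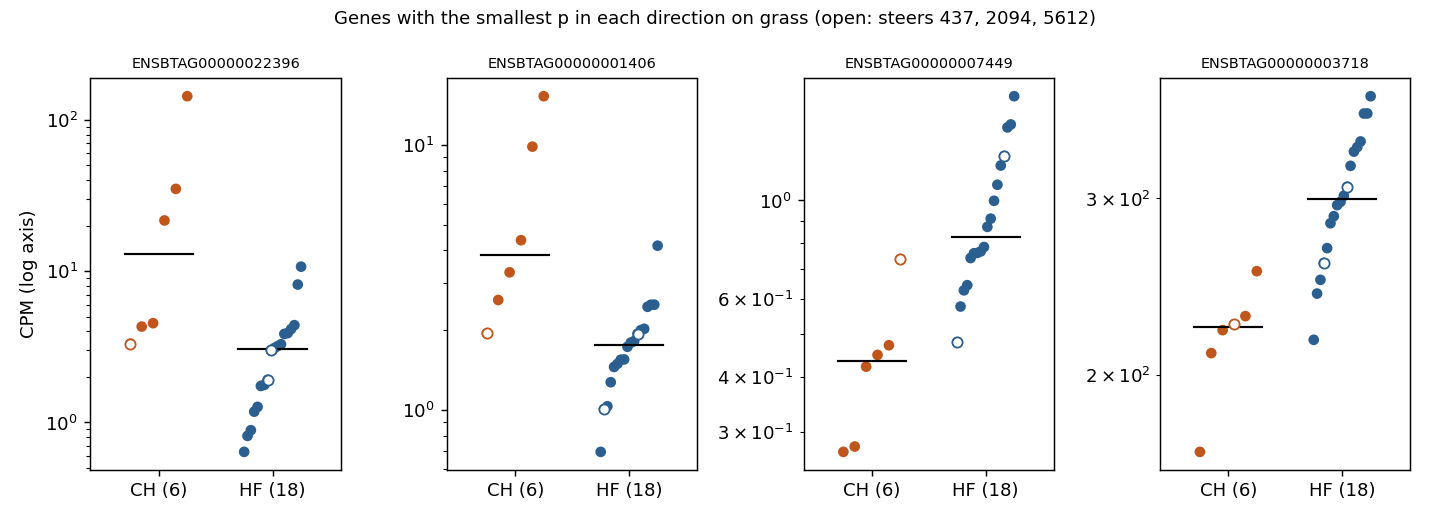
CPM on a logarithmic axis for the 2 genes called higher in CH and the 2 genes lower in CH with the smallest p on grass; each point is a steer (6 CH in orange, 18 HF in blue), bars are medians and open circles are steers 437, 2094 and 5612. The breeds overlap in each panel, and 5 of the 6 CH steers lie below all HF steers in the third.

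Both calls lay close to the threshold. Leaving out 1 library at a time gave 0 calls in 16 of the 24 fits, 1 call in 6, 3 without HF steer 1683 and 6 without CH steer 437, all 6 higher in CH. Both genes were called together only without steer 1683 or steer 437. The 1 call without HF steer 5612 was neither of them. With DESeq2 size factors in edgeR the log2 fold changes were 3.21 and 1.75 and the adjusted p 0.113 and 0.122. Neither gene was called without the 6 libraries above 30 on the first component, where 0 genes passed (373 at an unadjusted p under 0.05) and the log2 fold changes were 3.36 and 1.63. DESeq2's Wald test called 14 genes, 10 higher in CH, and limma-voom with sample quality weights called 32, 18 higher in CH; 5 genes were common to these tools and both genes above were among the calls of each. Without steers 437, 2094 and 5612, edgeR called 7 genes, all higher in CH, and both genes were among them, with log2 fold changes of 3.40 (adjusted p = 0.0486) and 1.89 (adjusted p = 0.0416); 666 genes then had an unadjusted p under 0.05. DESeq2 called 60 and limma-voom 374 genes from the same 21 libraries. Of the 7 genes, 4 were among the 41 that made up the breed score, by which the 3 steers had been picked, so this overlap is no independent support.

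When a covariate for the first component was added, the number of calls depended on how the component was made. The component of the 24 libraries as they are left 1 call, and 743 genes with an unadjusted p under 0.05. A component computed after breed and RFI group had been regressed out, which cannot share any part with breed by construction, gave 1140 calls, 1011 of them higher in CH. Such a component takes residual variation out of the same counts and leaves the breed term whole, so its p-values come out too small. The 1140 calls are therefore no evidence of breed differences.

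The same comparison in the concentrate phases gave more calls. edgeR called 556 of 13009 genes (4.27%) on H1 with 20 CH and 16 HF libraries, 155 higher in CH and 401 higher in HF, and 71 of 12384 genes (0.573%) on H2 with 17 CH and 13 HF libraries, 34 higher in CH and 37 higher in HF. Of the 24 grass steers, 3 CH and 5 HF also contributed a library to H1 or H2. The number 1797 is carried by a CH library on H1 and by an HF library on H2. Without those steers and that number, 121 genes were called on H1 (16 CH and 13 HF libraries) and 21 on H2 (16 CH and 9 HF libraries).

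Most genes called between breeds in the concentrate phases had the same sign on grass, though 1 of the H1 genes and 2 of the H2 genes were called there. Of the 553 H1 genes tested on grass, 430 (77.8%) had the same sign, against 62.2% of all 12857 genes tested in both phases, and 48 reached an unadjusted p under 0.05 with the same sign and 0 with the opposite sign. Of the 69 H2 genes tested on grass, 56 (81.2%) had the same sign, against 53.7% of all 12371 genes, and 18 reached an unadjusted p under 0.05, again none of them in the opposite direction. With the calls made on other steers only, the shares were 87 of 121 (71.9%, against 55.2% of all genes) for H1 and 17 of 19 (89.5%, against 46.8%) for H2. Without steers 437, 2094 and 5612, of which the last has an H2 library, they were 112 of 121 (92.6%, against 57.4% of all genes) and 18 of 20 (90.0%, against 48.3%). Those 3 steers were picked by genes called between breeds on H1 and H2. That choice by itself favours higher shares, so these values are a description and no further support. Among the 41 genes called on both diets, 36 had the same sign on grass and 12 an unadjusted p under 0.05, compared with 2.76% of all genes. Their median log2 fold change, counted in the direction of the concentrate phases, was 0.49 on grass, 0.69 on H1 and 1.04 on H2. The 41 were called on libraries that include some of the grass steers. Without those steers and number 1797 only 4 genes were called on both diets. On grass 3 of these 4 had the same sign and 1 an unadjusted p under 0.05. ENSBTAG00000001406 was one of the 41, with log2 fold changes of 1.00 on H1 (SE 0.32, edgeR adjusted p = 0.0912) and 1.80 on H2 (SE 0.36, edgeR adjusted p = 0.0164). ENSBTAG00000022396 was called on H2 (log2 fold change 2.76, SE 0.61, edgeR adjusted p = 0.0319) and not on H1 (0.14, SE 0.96, edgeR adjusted p = 0.972). Its highest library on H1 had 230 CPM in CH and 363 CPM in HF, and the medians there were 7.50 and 4.13 CPM.

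**Figure D3:**
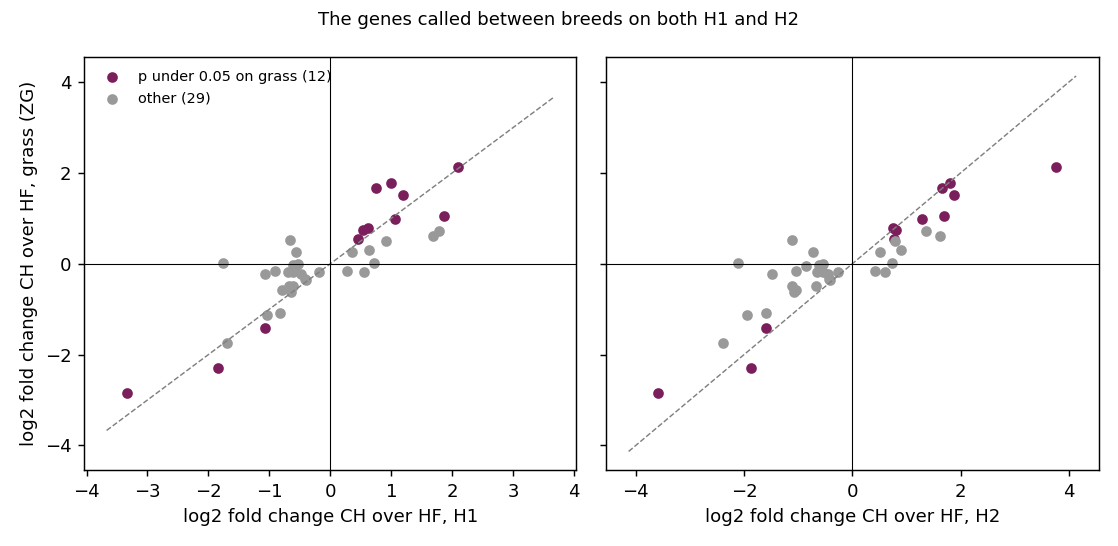
Log2 fold change of CH over HF on grass (vertical axis) against that on H1 (left) and H2 (right) for the 41 genes called on both concentrate diets; each point is a gene, purple for the 12 with an unadjusted p under 0.05 on grass and grey for the other 29, and the dashed line marks equal values. The purple points lie at the lower left and upper right of both panels, and 36 of the 41 genes have the same sign on grass. The 41 were called on libraries that include some of the grass steers.

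Of the 328 identifiers with a symbol, 12 were called between breeds on H1 and 6 on H2, with GSTA4 and GIMAP8 in both sets. Over all genes tested the shares called were 4.27% on H1 and 0.573% on H2, and these counts are not read as a result about genes with a symbol. None of these genes was called on grass, where each had an adjusted p of 0.999 from edgeR. Those described here were chosen for their H1 and H2 values. Glutathione S-transferase alpha 4 (GSTA4), which conjugates aldehydes formed by lipid peroxidation, was called on both. On grass it had 139, 277 and 358 CPM in CH (lowest, median, highest, n = 6) and 79.5, 171 and 347 CPM in HF (n = 18). In 5 of 6 CH steers the level was above the HF median, steer 437 was the lowest of CH, and the highest HF steers were 2094, 2069, 5612 and 5635 at 347, 324, 318 and 293 CPM. GSTA4 was among the 41 genes whose score picked steers 437, 2094 and 5612. Their places here follow in part from that choice. The log2 fold change on grass was 0.50 (SE 0.27), beside 0.92 on H1 (SE 0.16, edgeR adjusted p = 0.00271) and 0.79 on H2 (SE 0.18, edgeR adjusted p = 0.0363).

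GIMAP8 and GIMAP4 encode GTPases of immunity-associated proteins, a family that acts in lymphocyte survival, and LOC768255 has no named product in the sources used here. Reads from closely similar family members can be split or shared, so the level of any single one is uncertain. GIMAP8 had 12.1, 20.5 and 163 CPM in CH and 15.2, 30.4 and 241 CPM in HF. Its values on grass fell into a lower range, up to 44.3 CPM, and a higher range, from 109 to 261 CPM with all 90 libraries normalized together. Above 100 CPM, a limit set after the values were seen, were 7 of 18 HF steers and 1 of 6 CH steers, and that CH steer was 437. On H1 and H2 none of the 20 and 17 CH libraries was above 100 CPM, and 1 of 16 and 4 of 13 HF libraries were. The log2 fold change of GIMAP8 was -1.12 (SE 0.71) on grass, -1.03 (SE 0.22, adjusted p = 0.0098) on H1 and -1.94 (SE 0.33, adjusted p = 0.00287) on H2, all from edgeR, and -2.14 (adjusted p = 0.765) on grass without steers 437, 2094 and 5612. GIMAP8 too was among the 41 genes whose score picked those steers. The place of steer 437 and the value without those steers follow in part from that choice.

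GIMAP4 and LOC768255 were each either low or high in a steer, and together. On grass GIMAP4 had 8.31, 92.1 and 171 CPM in CH and 9.39, 176 and 670 CPM in HF, and LOC768255 had 1.88, 69.6 and 171 CPM in CH and 3.01, 169 and 643 CPM in HF. The steers under 30 CPM for GIMAP4 and those under 10 CPM for LOC768255 were the same 6, namely CH steer 307 and HF steers 1668, 1683, 1798, 1834 and 5635. These limits were also set after the values were seen. By the GIMAP4 limit the low steers were 1 of 6 CH and 5 of 18 HF on grass, 10 of 20 CH and 2 of 16 HF on H1, and 12 of 17 CH and 2 of 13 HF on H2. Log2 fold changes were -1.16 (SE 0.78) and -1.31 (SE 0.95) on grass for GIMAP4 and LOC768255. In H2 steers GIMAP4 stood at -2.65 (SE 0.53) with an edgeR adjusted p of 0.016, and LOC768255 at -3.18 (SE 0.60) with an edgeR adjusted p of 0.00939.

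Of the 10 pairs of a grass library with an H1 or H2 library of the same steer number, 9 were on the same side of the GIMAP4 limit, 7 of them high on both diets and 2, both of steer 307, low. Steer 307, for example, had 8.70 CPM on grass, 8.01 on H1 and 6.55 on H2, and steer 2065 had 321 CPM on grass and 343 on H1. The pair that crossed it was that of HF steer 5612, with 302 CPM of GIMAP4 on grass and 9.98 CPM on H2, and with 257 and 5.18 CPM of LOC768255. For GIMAP8 the pair that crossed its limit was steer 5632, with 139 CPM on grass and 66.8 on H1.

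**Figure D4:**
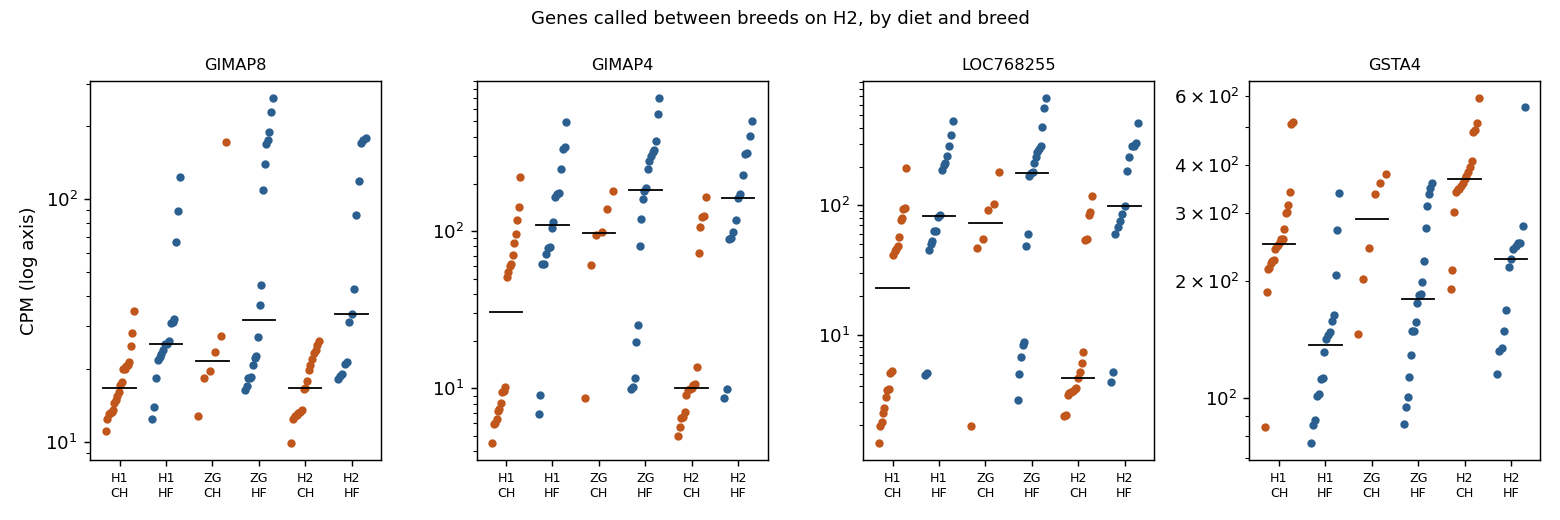
CPM on a logarithmic axis for GIMAP8, GIMAP4, LOC768255 and GSTA4 in all 90 libraries by diet and breed (CH orange, HF blue, bars are medians; 20, 6 and 17 CH and 16, 18 and 13 HF libraries on H1, ZG and H2). GIMAP4 and LOC768255 split into a low and a high set in each diet, and on grass 1 of 6 CH steers and 5 of 18 HF steers are in the low set.

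Guanylate cyclase 2D (GUCY2D), an enzyme that makes cyclic GMP, was called on H1 and had the smallest p of all genes with a symbol on grass. It had 1.25, 2.45 and 4.87 CPM in CH and 0.689, 1.37 and 2.67 CPM in HF, with 5 of 6 CH steers above the HF median and a log2 fold change of 0.96 (SE 0.27) on grass beside 0.87 on H1 (SE 0.20, edgeR adjusted p = 0.0124). The small GTPase RAC1, which organises actin at the cell edge, had 35.04, 39.7 and 51.3 CPM in CH and 41.4, 51.0 and 65.1 CPM in HF. In 4 of 6 CH steers RAC1 was below every HF steer, and its log2 fold change was -0.29 (SE 0.10) on grass, -0.30 on H1 (SE 0.07, edgeR adjusted p = 0.0146) and -0.01 (SE 0.08) on H2. Dimethylglycine dehydrogenase (DMGDH), a step of choline and betaine breakdown, had 168, 247 and 439 CPM in CH and 159, 201 and 361 CPM in HF, with log2 fold changes of 0.31 (SE 0.18) on grass and 0.31 on H1 (SE 0.09, edgeR adjusted p = 0.0616). DOCK8, an exchange factor of leukocyte migration, was called on H2 at -0.68 (SE 0.13, edgeR adjusted p = 0.00773) and had a log2 fold change of -0.22 (SE 0.18) on grass. A further 7 genes, CLEC12A, LOC511617, SLC25A42, THEM6, NEDD9, PTPRCAP and RAB40C, had log2 fold changes between -0.22 and 0.34 on grass, each within 1 SE of 0.

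Of the 320 genes with a symbol, 8 had an unadjusted p under 0.05 on grass, 3 higher in CH and 5 higher in HF. That share is no larger than the 2.76% among all genes tested, so the count is no result about these genes. Of the 320, 0 passed the adjusted threshold (DESeq2 called 0 of them and limma-voom 1, GUCY2D). Beside GUCY2D and RAC1 the 8 were, by name and chosen after their values were seen, MCC and KIFC1 (higher in CH) and HIST1H2BD, MAOB, JAM2 and KIAA2012 (lower in CH). MCC, a protein first found mutated in colorectal cancer, had 13.7, 19.2 and 34.8 CPM in CH and 9.54, 13.8 and 25.4 CPM in HF (log2 fold change 0.53, SE 0.20). Monoamine oxidase B (MAOB), a mitochondrial amine oxidase, had 358, 611 and 731 CPM in CH and 505, 729 and 881 CPM in HF (log2 fold change -0.28, SE 0.12). Junctional adhesion molecule 2 (JAM2), found at contacts of endothelial cells, had 11.5, 15.2 and 20.4 CPM in CH and 13.2, 19.6 and 35.3 CPM in HF (log2 fold change -0.39, SE 0.17). The histone gene HIST1H2BD, one of many near-identical copies and so uncertain, and KIAA2012 stood at -0.52 (SE 0.20) and -0.30 (SE 0.13) on the log2 scale.

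The genes with a symbol were also sorted into groups by role. No group held a called gene, and the groups are described by their counts and medians. Over all genes tested, 7194 of 13057 were higher in CH and the median log2 fold change was 0.02. Among the 320 tested genes with a symbol, from which the groups were drawn, 196 were higher in CH and the median was 0.08. In the group of cell division and DNA replication, 18 of 20 genes were higher in CH and the median log2 fold change was 0.26. The spindle motor KIFC1 had 0.896, 1.31 and 2.24 CPM in CH and 0.322, 0.665 and 2.15 CPM in HF (log2 fold change 0.69, SE 0.31), with all 6 CH steers above the HF median. RAD54L, which acts in repair by homologous recombination, had 1.51, 3.26 and 4.39 CPM in CH and 1.48, 2.13 and 3.87 CPM in HF (log2 fold change 0.39, SE 0.20). The mean log2 CPM of the 20 genes was 1.62 to 1.92 in CH (median 1.77) and 1.22 to 1.97 in HF (median 1.57), so that the breeds overlapped. The median was 0.18 without the 6 libraries above 30 on the first component (15 of 20 higher in CH), 0.21 without steers 437, 2094 and 5612 (16 of 20), 0.41 in low RFI steers (14 of 19) and 0.05 in high RFI steers (11 of 20). On H1 it was 0.09 (12 of 20) and on H2 -0.13 (6 of 19).

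Secreted acute phase, complement and coagulation proteins lay the other way: 12 of 13 genes were lower in CH, with a median log2 fold change of -0.18. The direction was not kept in limma-voom with quality weights (median 0.02, 6 of 13 lower) or in low RFI steers alone (0.11, 5 of 13 lower). In high RFI steers alone the median was -0.80 with 10 of 12 lower. FGA had a log2 fold change of -0.39 (SE 0.23). The complement protease C1R had the most negative value, -3.01 (SE 1.56), which came from 2 HF steers: steers 1683 and 2242 had 32.1 and 28.6 CPM, the other 16 HF steers had at most 0.80 CPM, and CH steers had 0.035 to 1.51 CPM. On H1 the group had a median of -0.04 (7 of 12 lower) and on H2 of 0.22 (1 of 10 lower).

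The other groups lay close to the median of all genes when the 24 libraries were fitted together, but several had medians of opposite sign in low and high RFI steers, a difference that was not tested by group. The libraries above 30 on the first component lay in both subsets, but in CH only among low RFI steers. CH steer 788 and HF steers 1961 and 5635 were low RFI, and HF steers 1798, 2069 and 2242 were high RFI. By mean log2 CPM, steers 788 and 2242 were the lowest CH and HF steers for lipid metabolism, and steers 788 and 5635 for translation. For leukocyte genes they were steers 307 and 1668. Whether this spread bears on the change of sign was not tested. Leukocyte genes had 9 of 13 lower in CH and a median of -0.11 (0.07 in low and -0.65 in high RFI steers, -0.21 on H1 and -0.54 on H2), with LOC768255, GIMAP4 and GIMAP8 at its low end. LOC768255 was counted in this group although it has no named product here. Its low steers on grass were those of GIMAP4, so these members are not independent. Feedback regulators of NF-kB, cytokines and immediate early genes had 10 of 14 higher in CH and a median of 0.12. The direction turned without the 6 libraries (-0.05, 6 of 14 higher), with the first component as covariate (-0.04, 6 of 14) and in low RFI steers (-0.24, 1 of 14), beside 0.43 in high RFI steers. In this group the interleukin 17 receptor subunit IL17RC had 20.7, 48.4 and 70.0 CPM in CH and 8.96, 36.3 and 64.5 CPM in HF (log2 fold change 0.37, SE 0.33), and the cytokine IL1A, at under 2.1 CPM in every steer, had -0.50 (SE 0.38). Lipid metabolism had 12 of 17 higher in CH and a median of 0.06 (-0.31 in low and 0.52 in high RFI steers). There B4GALT6, which makes lactosylceramide, had 5.61, 8.80 and 12.9 CPM in CH and 3.97, 6.98 and 11.0 CPM in HF (log2 fold change 0.28, SE 0.18), and HACD4, a dehydratase of very long chain fatty acid elongation, had 0.348, 2.87 and 6.30 CPM in CH and 0.439, 1.02 and 4.84 CPM in HF (0.82, SE 0.55).

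Amino acid and one-carbon metabolism had 6 of 10 genes higher in CH and a median of 0.11. That direction also turned without the 6 libraries (-0.09, 3 of 10 higher), with the first component as covariate (-0.09, 3 of 10) and in low RFI steers (-0.39, 3 of 10). GLDC, the decarboxylase of the glycine cleavage system, had 121, 204 and 238 CPM in CH and 122, 235 and 311 CPM in HF (log2 fold change -0.28, SE 0.17). Detoxification and redox enzymes had 9 of 13 lower in CH and a median of -0.05, beside 0.06 on H1 and 0.11 on H2. CYP3A5, a P450 that oxidises steroids and drugs, had 385, 482 and 677 CPM in CH and 298, 682 and 980 CPM in HF (-0.38, SE 0.19), and all 6 CH steers were below the HF median. Sugar, energy and nucleotide metabolism had 9 of 15 lower and a median of -0.10 (-0.35 in low and 0.06 in high RFI steers). PPP1R3C, which brings protein phosphatase 1 to glycogen, had 99.0, 163 and 359 CPM in CH and 140, 215 and 372 CPM in HF (-0.40, SE 0.22), and GNPDA1, which returns glucosamine phosphate to glycolysis, had 13.9, 16.5 and 19.8 CPM in CH and 15.6, 19.4 and 27.6 CPM in HF (-0.23, SE 0.11). Matrix, adhesion and cytoskeleton genes had 9 of 17 lower and a median of -0.0014 (-0.27 in low and 0.24 in high RFI steers), and translation genes 5 of 7 lower and a median of -0.01, with 0 of 7 higher in CH in low and 7 of 7 in high RFI steers. The clock, heat shock, and zinc and haem groups held only 3, 2 and 2 genes, with medians of 0.10, 0.01 and 0.02, each below 0 without the 6 libraries.

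**Figure D5:**
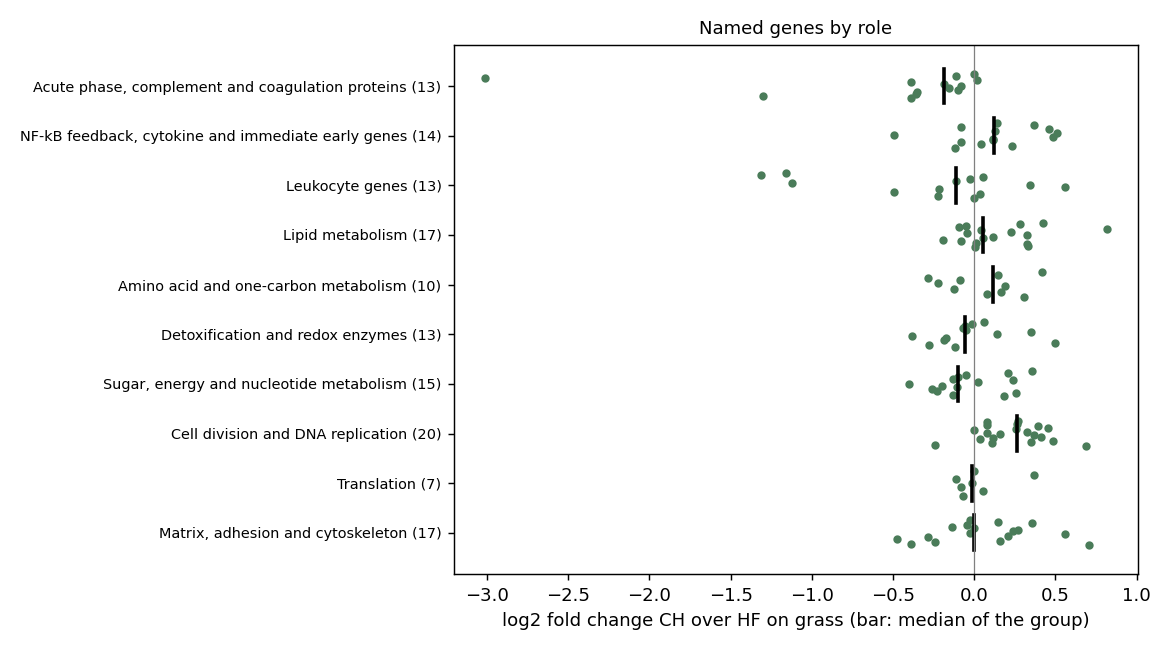
Log2 fold change of CH over HF on grass (horizontal axis) for each tested gene with a symbol in the 10 role groups that hold at least 7 genes; each green point is a gene, black bars are group medians and numbers in brackets count the genes. The median of cell division and DNA replication is 0.26 and that of acute phase, complement and coagulation proteins -0.18, and no gene shown passed the adjusted threshold.

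The pathway lists drawn up for this tissue (25 lists, 627 symbols) could hardly be used, since 56 of their symbols were among the names at hand and no list had more than 6 matched members. Of these, 0 were called in either direction. The methionine and one-carbon list had 5 of its members matched, the cell cycle list 5, and the acute phase list 6.

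Whether the breed difference on grass depended on RFI group was tested by an interaction term. edgeR, DESeq2 and limma-voom each called 0 genes, edgeR with 696 of 13057 genes (5.33%) at an unadjusted p under 0.05 and a smallest adjusted p of 0.609. Without steers 437, 2094 and 5612 edgeR also called 0, with 393 genes at an unadjusted p under 0.05. The breed difference alone gave 0 calls in low RFI steers (3 CH and 10 HF) and 0 in high RFI steers (3 CH and 8 HF), with 416 and 529 genes at an unadjusted p under 0.05. ENSBTAG00000022396 had log2 fold changes of 4.14 in low and 1.68 in high RFI steers and ENSBTAG00000001406 of 1.43 and 2.07, and the interaction was not called for either (adjusted p = 0.609 and 0.637 from edgeR).

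Whether the breed difference on grass differed from that on concentrate was tested over all 90 libraries. Against H1, edgeR called 0 of 13945 genes, with 418 (3.00%) at an unadjusted p under 0.05, and DESeq2 called 1. Against H2, edgeR called 0, with 761 (5.46%) at an unadjusted p under 0.05, and DESeq2 called 32, all with a lower value of CH over HF on grass. With the steer as a block in limma-voom 0 genes were called in both contrasts, and edgeR called 0 in both without steers 437, 2094 and 5612. For ENSBTAG00000022396 the difference of the log2 fold changes on grass and H1 was 2.88 (SE 0.99) and that on grass and H2 -0.04 (SE 1.11), and for ENSBTAG00000001406 they were 0.76 (SE 0.52) and -0.02 (SE 0.52). No breed difference was thus shown by edgeR to be particular to grass.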

How the data were processed

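The authors trimmed the reads with cutadapt, aligned them to UMD3.1 with STAR (2.5.3a in the submitters' notes; the paper names an older release) and deposited raw gene counts on Ensembl genes. Both breeds were aligned to 1 reference genome. The kit is strand-specific, but the count column used is not given in the sources used here. The 24 ZG libraries, grouped by breed, diet and RFI labels, were fitted with edgeR 4.0.16 in R 4.3.3 (TMM, filterByExpr by breed, robust quasi-likelihood, RFI as covariate), and a gene was called at an adjusted p below 0.1. CPM are TMM-normalized counts. SE is the absolute log2 fold change over the square root of F. Alternatives used DESeq2 1.42.0, limma 3.58.1, other scalings, filters, covariates and subsets; the fits without 6 or 3 libraries and with the first component were chosen after seeing the data. Named genes were to be those called; as just 2 were, genes called on H1 or H2, those with a small unadjusted p and the leading genes of role groups were added after their values were seen. The comparison, gene lists and role groups were chosen with earlier results of these data known. The fits were tested on simulated data. Depth was 11696079 to 63621304 counted reads per library. Sequences, coordinates and columns of the authors' own comparisons were not used. Of the genes with a symbol called on H2, 1 is not reported here.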

Additional observations from a re-analysis of the deposited data

Results flagged for a closer look

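Among 90 checks of 30 genes within CH steers, low RFI HF steers and high RFI HF steers, 12 found the highest or lowest steer far from the nearest of the others by Dixon's criterion at 95%, which chance exceeds in about 1 of 20 groups. The criterion was applied to log2 of CPM plus 0.5, and the values given are CPM on grass. In CH there were 5. Steer 437 was highest for GIMAP8 (163, next 25.9) and lowest for MAOB (358, next 576). GIMAP8 was among the 41 genes whose score picked that steer. Steer 307 was lowest for GIMAP4 (8.31, next 57.5) and LOC768255 (1.88, next 44.0), and steer 788 was highest for IL1A (1.43, next 0.536). In low RFI HF steers, steer 1683 was highest for C1R (32.1, next 0.798), and steer 5635, one of those above 30 on the first component, was lowest for IL17RC (12.04, next 29.96) and highest for GNPDA1 (27.6, next 20.4). In high RFI HF steers, steer 2242 was highest for C1R (28.6, next 0.252), steer 1798 lowest for GIMAP4 (23.3, next 111), steer 5633 highest for HACD4 (4.84, next 1.57) and steer 2272 lowest for GLDC (122, next 198).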

How the results depend on the processing

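With 6 CH steers the number of calls on grass moved with most settings. In place of 2 calls, there were 0 with DESeq2 size factors, with no filter, in low or high RFI steers alone, at an adjusted p under 0.05 and without the 6 libraries above 30 on the first component. There was 1 with that component as covariate, 7 without steers 437, 2094 and 5612, 9 with all 90 libraries in one fit, 14 with DESeq2 and 32 with limma-voom. ENSBTAG00000022396 was not among the 9 (adjusted p = 0.298 from edgeR). The residual component gave 1140, from p-values that are too small by construction. Leaving out 1 library gave 0 to 6: 6 without CH steer 437, 3 without HF steer 1683, 1 without CH steers 788, 1816 or 1831 or HF steers 1961, 2272 or 5612, and 0 otherwise. The call without steer 5612 was neither of the 2 genes of the main fit. The same 2 genes were called without the RFI covariate and with at least 10 counts in every library. With library size as covariate there were also 2, but ENSBTAG00000001406 was not one of them (adjusted p = 0.235 from edgeR). Against H1 and H2, DESeq2 gave 1 and 32 calls in place of 0. Within H2, DESeq2 gave 157 calls, and without shared steers and number 1797 there were 121 on H1 and 21 on H2. The cause of these changes was not tested. No paired analysis was possible because no steer or pair number joins the breeds on grass. With the steer as a block over 90 libraries (consensus correlation 0.124) 0 genes were called against H1 and against H2.

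Over 30 genes and their alternatives, 433 values kept their sign and their side of the threshold, 16 came past it (11 of them with the residual component), 15 fell short of it and 7 changed sign. The last were, in high RFI steers alone, DMGDH (-0.32), MCC (-0.028), RAD54L (-0.023) and B4GALT6 (-0.18), in low RFI steers alone IL17RC (-0.35) and HACD4 (-0.87), and with DESeq2 C1R (1.01), none of them called on grass. Without steers 437, 2094 and 5612, 29 of the genes kept their sign and C1R had too few reads to be tested.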
